A study of Mus musculus with 8 samples.

Results

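Imprinted genes are read from 1 parental copy, and 33 of them were followed here in mouse neural progenitor cells by RNA-seq. They were taken by gene symbol from a list of 11 genes read from the maternal copy and 22 read from the paternal copy. The table of 32499 genes held 30 of the 33, and Airn, Kcnq1ot1 and Peg13 were not analysed here. A filter on low counts left 25 for testing, 10 maternally and 15 paternally expressed. Cells came from neural tubes at embryonic day 14, were dissociated with collagenase and sorted with NeuroFluor CDr3, a dye that binds the radial glia protein Fabp7. The strain is given as C57BL/6 for every library. The 4 control libraries are labelled Control, and the protocols describe the comparison embryos as wild type. The other 4 are labelled 53BP1 KO (KO-labelled below). For these the protocols name the Trp53bp1tm1Jc knockout line and also embryos of its females mated to males with an in-frame Cas9 deletion in 53bp1. The labels do not say which alleles a library carried, whether the groups were littermates, or whether the cells were sequenced directly or after culture in differentiation medium.

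An imprinted gene carries DNA methylation set in the egg or the sperm, which marks the copy by its parent of origin and keeps it silent or active through cell division. Most imprinted genes lie in clusters that share a methylated control region, often beside a long non-coding RNA read from the opposite copy. Many of them act on growth, metabolism or brain development: Igf2 drives growth, Igf2r and H19 restrain it, and the Ndn, Magel2, Snrpn and Ube3a cluster is the mouse counterpart of the region lost in Prader-Willi and Angelman syndromes. The counts here are totals per gene, so they give the level of each gene and not the parental copy it came from.

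The sequences before the starts of a few of these genes are given for their CG content and for 1 short motif; methylation was not measured. RefSeq gave promoter windows for 25 of the 30 genes, on GRCm38.p6, which is not the build of the counts. Grb10, the member with the largest fold change, has annotated starts of different base composition. The 250 bases before its upstream start, chr11:12037421-12037670 on the minus strand, held 40 CG dinucleotides, more than 98.7% of all windows. Those before its downstream start, chr11:12027972-12028221 on the minus strand, held 8. Both are shown because the deposited count joins their transcripts, with CG in capitals.
Grb10 upstream start: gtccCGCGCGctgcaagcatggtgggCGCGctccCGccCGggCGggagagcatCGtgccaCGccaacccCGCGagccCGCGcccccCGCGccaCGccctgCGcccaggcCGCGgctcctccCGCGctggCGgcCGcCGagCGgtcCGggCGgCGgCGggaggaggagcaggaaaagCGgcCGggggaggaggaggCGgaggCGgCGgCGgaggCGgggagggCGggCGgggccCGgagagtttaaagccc
Grb10 downstream start: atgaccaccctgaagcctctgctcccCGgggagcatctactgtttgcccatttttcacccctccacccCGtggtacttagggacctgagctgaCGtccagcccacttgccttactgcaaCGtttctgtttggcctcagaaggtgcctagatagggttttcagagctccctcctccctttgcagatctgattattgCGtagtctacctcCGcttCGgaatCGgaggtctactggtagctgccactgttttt

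TGCCGC is the motif that Zfp57, a zinc finger protein that protects imprints, binds when it is methylated. Searched on both strands, it was present in the 250 bases before a start for 5 of the 25 members with a window (20%, beside 9.84% of 27025 genes). By window it was in 14.6% of 41 member windows, overlapping ones of Mest among them, beside 8.68% of 32851. Member windows also held more CG (median 10, beside 6 over all windows). The 5 members were Mest, Nap1l5, Mcts2, Meg3 and Plagl1. Mest fell in the KO-labelled libraries and the other 4 did not pass the test. The match is a description of these letters and not a binding site, and the shares were not tested against each other. The windows of Mest (chr6:30737800-30738049, plus strand), Nap1l5 (chr6:58907127-58907376, minus strand) and Mcts2 (chr2:152686898-152687147, plus strand) are shown with the motif or its reverse complement in capitals, since they belong to 1 member that fell and 2 that did not pass.
Mest: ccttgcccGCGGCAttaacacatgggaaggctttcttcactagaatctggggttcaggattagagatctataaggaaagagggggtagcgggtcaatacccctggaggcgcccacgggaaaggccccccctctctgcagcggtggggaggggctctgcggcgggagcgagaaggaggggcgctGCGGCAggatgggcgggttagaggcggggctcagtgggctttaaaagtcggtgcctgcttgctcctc
Nap1l5: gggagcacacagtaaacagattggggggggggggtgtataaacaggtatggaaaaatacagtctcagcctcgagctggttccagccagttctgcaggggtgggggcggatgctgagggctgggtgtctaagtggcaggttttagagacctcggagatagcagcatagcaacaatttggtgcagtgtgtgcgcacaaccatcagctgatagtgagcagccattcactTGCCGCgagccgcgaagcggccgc
Mcts2: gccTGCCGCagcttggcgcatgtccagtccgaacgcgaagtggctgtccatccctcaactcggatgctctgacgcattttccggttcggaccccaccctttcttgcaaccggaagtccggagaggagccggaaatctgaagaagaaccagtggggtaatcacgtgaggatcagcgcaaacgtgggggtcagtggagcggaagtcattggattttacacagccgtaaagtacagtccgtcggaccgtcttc

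Total counts ran from 11081419 to 24339621 per library, so that 3 counts stood for 0.126 to 0.261 CPM, the reads of a gene scaled to the size of its library (TMM). Trp53bp1 did not separate the groups (26.7 ± 0.348 CPM in the controls, against 27.1 ± 6.35 CPM in the KO-labelled group, SD, n = 4 each). A whole-gene count does not check an in-frame deletion. Counts of Xist, the RNA of the inactive X, were 23853 to 26134 per control and 9 to 16 per KO-labelled library, and those of the Y-linked Ddx3y were 0 in each control and 579 or more in each KO-labelled library. All 4 controls thus look female and all 4 KO-labelled libraries male by these genes, so genotype and sex cannot be told apart in any difference below. The labels do not say that replicates were separate embryos, so every p reflects the spread among these 8 libraries alone, which may be technical. Control 4 stood apart from the other controls in several lists given below.

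Between the groups, 5 of the 25 imprinted genes were higher in the KO-labelled libraries and 3 were lower (edgeR's quasi-likelihood test, Benjamini-Hochberg adjustment over all genes, threshold 0.05). Grb10, Ndn, Nnat, Peg10 and Impact rose, and Mest, H19 and Inpp5f fell. Over all 15021 genes tested 30.0% were called, 16.1% higher and 13.9% lower, and among the imprinted genes the share was 32%. The share of imprinted genes that moved was thus near that of the whole transcriptome. Their median log2 fold change was 0.04, beside 0.00 over all genes, and its sign turned with voom (-0.04), without control 1 (-0.04) and without KO-labelled library 2 (-0.01). Of the 10 maternally expressed genes 1 rose, 1 fell and 8 did not pass, and voom called 5 lower. Their median was -0.25, and it was -0.03 for genes with a mean of at least 1 CPM, -0.10 with no filter, -0.40 with voom, and -0.14 without control 2 to -0.37 without KO-labelled library 2. Of the 15 paternally expressed genes 4 rose, 2 fell and 9 did not pass, with a median of 0.07. The sign of that median changed without control 1 (-0.02), and it ran up to 0.13 without control 3 or control 4. No difference between the parental classes was tested. In 8 of the 25 the groups did not overlap, where 29.9% of all genes tested did not; the 8 are those called, with Igf2 in place of Ndn.

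**Figure D1:**
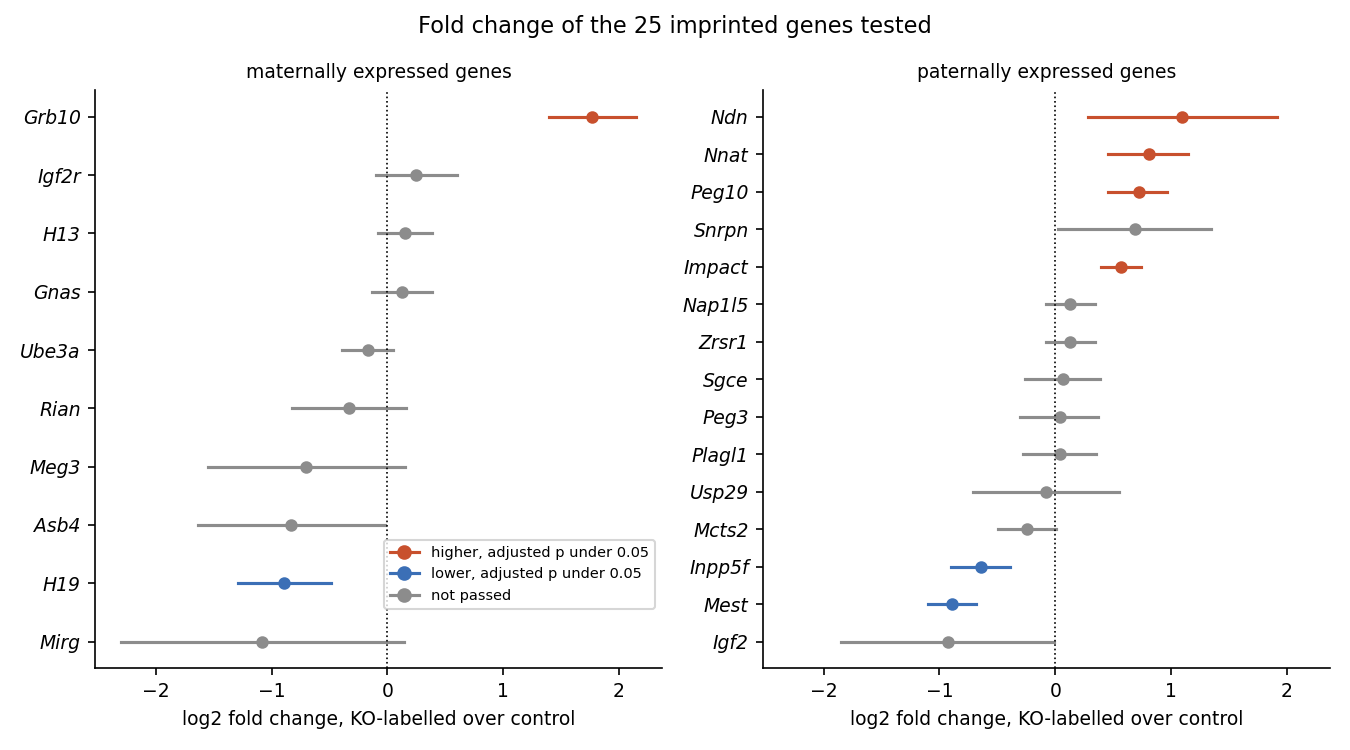
Log2 fold change of the KO-labelled over the control libraries (x axis) with its 95% interval for each imprinted gene tested, maternally expressed genes on the left and paternally expressed genes on the right. Points in colour passed the test: 1 maternally expressed gene rose and 1 fell, and 4 paternally expressed genes rose and 2 fell.

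Grb10, an adaptor protein that restrains insulin and insulin-like growth factor receptors, had the largest change. It is read from the maternal copy in most tissues and from the paternal copy in neurons. It had 5.96, 6.66, 5.47 and 4.19 CPM in controls 1 to 4 and 20.3, 24.2, 14.2 and 18.3 CPM in KO-labelled libraries 1 to 4. Every KO-labelled library was above every control. The log2 fold change was 1.77 (SE 0.18, adjusted p = 4.7e-06 by edgeR), and it ranged from 1.65 to 1.89 with any 1 library left out.

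H19, a long non-coding RNA that restrains growth and is the precursor of a microRNA, fell. Its levels were 4.43, 4.44, 5.15 and 5.94 CPM in the controls, against 2.41, 2.87, 2.31 and 3.14 CPM in the KO-labelled group. The groups did not overlap, although each library held 33 to 92 reads of this gene (-0.89 on the log2 scale, SE 0.18, adjusted p = 0.00227 by edgeR). Igf2, the growth factor that shares enhancers with H19 on chromosome 7, had 14 to 23 counts in a control library and 5 to 15 in a KO-labelled one. In CPM that was 0.875, 1.25, 0.901 and 1.42 in the controls, against 0.246, 0.870, 0.844 and 0.460 in the KO-labelled group, which did not overlap by a narrow margin. It did not pass the test (-0.93, SE 0.43, adjusted p = 0.121 by edgeR). The log2 ratio of Igf2 to H19 was -2.16 ± 0.29 in the controls, against -2.24 ± 0.83 in the KO-labelled group, with overlap.

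H19, Igf2 and Mest are expressed in embryonic mesenchyme and muscle, and some markers listed for those cells and for vessels differed between the groups as well. H19, Igf2 and Mest were picked with their lower levels known, and Igf2 did not pass the test. Their shared direction with the markers was thus fixed by the choice and links them to no cell type. The other imprinted genes were not sorted by the cells that express them, and of all members 5 rose and 3 fell. Of 10 mesenchyme markers tested 7 fell and 1 rose, and all 11 together summed to 88.6 to 145.5 CPM in the controls (145.5 in control 4, at most 102.1 in the others) and 48.9 to 61.8 CPM in the KO-labelled libraries. Col3a1, a fibrillar collagen, fell from 30.3 ± 15.9 to 7.13 ± 0.903 CPM, with control 4 at 53.9 CPM and the other controls at most 25.1 CPM. Prrx1, with the highest control mean of the list, fell from 39.2 ± 5.90 to 29.6 ± 3.55 CPM, with overlap. Twist1 was the marker that rose, from 0.344 ± 0.192 to 2.02 ± 0.249 CPM (2.49, SE 0.38). Skeletal muscle markers (3 of 6 tested fell) summed to 45.2 to 56.9 CPM in controls and 27.7 to 34.2 CPM in KO-labelled libraries. Myh8 made up the largest part of those sums, at 28.0 to 38.0 and 15.6 to 19.5 CPM in the same order. The muscle genes Myod1, Myog and Acta1 were too low to test, with 12 counts or fewer in any library. Actc1 did not pass (-0.11, SE 0.15), so these sums are weak evidence of muscle cells. Endothelial markers (2 of 3 fell) summed to 8.75 to 14.8 CPM in controls and 2.97 to 7.04 CPM in KO-labelled libraries. In bulk samples fewer cells of a type and less RNA per cell cannot be told apart. The part of these cells in the values of H19, Igf2 and Mest was not tested.

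Igf2r, the receptor that clears Igf2 and carries lysosomal enzymes, had 325, 324, 369 and 210.3 CPM in the controls, against 404, 442, 284 and 331 CPM in the KO-labelled group. Control 4 was the lowest of the 8, and KO-labelled libraries 3 and 4 lay within the control range. It did not pass (0.25, SE 0.16, 95% interval -0.10 to 0.60, adjusted p = 0.27 by edgeR).

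Other genes of the insulin-like growth factor pathway, in which Grb10, Igf2 and Igf2r act, were read beside them. Of 17 tested 6 rose and none fell (35.3% called, median log2 fold change 0.12), where 16.1% of all genes rose and 13.9% fell. DESeq2, upper-quartile scaling and the fit without control 4 each called 1 lower, and voom called 2 lower. The number that rose was 5 to 7 with 1 library left out and 5 with robust dispersion. Pappa, a protease that cleaves binding proteins of these growth factors, rose from 1.10 ± 0.326 to 5.43 ± 0.462 CPM (2.29, SE 0.22, adjusted p = 4.06e-06 by edgeR). The binding protein Igfbp5 rose from 173 ± 10.8 to 443 ± 47.6 CPM (1.36 on the log2 scale, SE 0.10). Igfbp6 (1.61, SE 0.42) and Igfbp4 (0.56, SE 0.18) rose as well, the first from 0.433 ± 0.241 CPM. Igfbp4 was at 155 CPM in control 4, 288 to 352 CPM in the other controls and 384 to 438 CPM in the KO-labelled libraries. The most abundant binding proteins did not pass: Igfbp3 at 1312 and 1292 CPM (-0.02, SE 0.10) and Igfbp2 at 565 and 617 CPM (0.13, SE 0.14), controls first. Among the RNA-binding proteins named for binding Igf2 mRNA, Igf2bp1 rose by 1.48 (SE 0.34) and Igf2bp2 by 0.63 (SE 0.15) on the log2 scale, and Igf2bp3 did not pass (0.00, SE 0.09, adjusted p = 0.989).

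The RNAs of the Dlk1-Meg3 cluster on chromosome 12 were scarce. Meg3, Rian and Mirg are maternally expressed non-coding RNAs that carry small RNAs, and per control library they had 24 to 54, 51 to 95 and 13 to 28 counts in that order. Per KO-labelled library they had 13 to 28, 48 to 57 and 2 to 14 counts. None of the 3 passed the test, with log2 fold changes of -0.70 (SE 0.40) for Meg3, -0.33 (SE 0.23) for Rian and -1.08 (SE 0.57) for Mirg. Limma voom called all 3 lower, at adjusted p of 0.0146, 0.046 and 0.00529 in that order. The paternally expressed genes of the cluster were too low to test: Dlk1, a membrane relative of the Notch ligands, had 4, 14, 6 and 7 counts in the controls, against 0, 5, 1 and 2 in the KO-labelled group, and Rtl1, a gene derived from a retrotransposon, had 4 to 10 and 0 to 5 counts. Rtl1 lies antisense to the non-coding RNAs of the cluster, and the strand setting of the counting is not given in the sources used here.

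Mest, which encodes a hydrolase-like protein of mesoderm and brain, showed the largest fall among the abundant members. It had 190.5, 171, 180.0 and 221 CPM in the controls, against 103, 97.7, 114 and 97.0 CPM in the KO-labelled group. Every KO-labelled library was below every control (-0.89, SE 0.10, adjusted p = 1.11e-05 by edgeR). Its neighbour Copg2, a coat protein subunit of vesicles whose end overlaps that of Mest, rose from 132 ± 2.59 to 188 ± 10.5 CPM (0.51, SE 0.08, adjusted p = 0.000232 by edgeR). The log2 ratio of Mest to Copg2, a pair chosen after the values were seen, was 0.40 to 0.71 in the controls and between -0.93 and -0.80 in the KO-labelled libraries.

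Peg10, a retrotransposon-derived gene, and Sgce, a sarcoglycan of the muscle and brain membrane complex, start side by side on chromosome 6 and are both paternally expressed. Peg10 rose, with 38.6, 34.4, 40.7 and 30.01 CPM in the controls, against 65.6, 65.2, 50.9 and 54.7 CPM in the KO-labelled group (0.72, SE 0.12, adjusted p = 0.000417 by edgeR). The groups were fully separate. Sgce had 9.85, 15.3, 13.5 and 12.2 CPM in controls against 11.5, 16.2, 11.9 and 13.9 CPM, and did not pass (0.07, SE 0.15, 95% interval -0.26 to 0.39). Peg10 was thus higher relative to Sgce: their log2 ratio was 1.51 ± 0.35 in the controls, against 2.15 ± 0.24 in the KO-labelled group, with the highest control and the lowest KO-labelled library both at 1.97. Asb4, a maternally expressed gene of the same cluster, had 12 to 24 counts in a control and 7 to 14 in a KO-labelled library (-0.83, SE 0.38, adjusted p = 0.115 by edgeR).

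Ndn, a paternally expressed gene of the MAGE family linked to neuronal survival, was the least certain of the 8 calls. It had 2.90, 0.813, 1.03 and 1.23 CPM in the controls, against 3.63, 3.91, 3.88 and 1.67 CPM in the KO-labelled group. Control 1 lay above KO-labelled library 4, so the groups overlapped (1.10, SE 0.38, adjusted p = 0.0423 by edgeR). The call was lost with 6 of the 8 libraries left out in turn, that is each except control 1 and KO-labelled library 4, at an adjusted p of up to 0.121, and the log2 fold change was 1.66 without control 1. Magel2, its neighbour of the same family, had 2, 0, 0 and 2 counts in the controls, against 5, 2, 5 and 5 in the KO-labelled group and was not tested.

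Snrpn, which encodes a splicing protein, had 12 to 32 counts in a control and 28 to 47 in a KO-labelled library and did not pass (0.69, SE 0.31, adjusted p = 0.115 by edgeR). Snurf, which shares its transcript, had 0 counts in all 8 libraries, and the share of Snrpn reads lost to the overlap was not tested. The ubiquitin ligase gene Ube3a, maternally expressed in neurons, had 50.6, 62.1, 58.5 and 53.7 CPM in controls against 50.2, 57.6, 47.4 and 45.1 CPM, with overlap (-0.17, SE 0.10, adjusted p = 0.243 by edgeR). The log2 ratio of Snrpn to Ube3a was -5.56 ± 0.39 in the controls, against -4.66 ± 0.21 in the KO-labelled group, without overlap. Peg12, a further paternally expressed gene of this cluster, fell from 229.7 ± 20.4 to 107 ± 8.14 CPM (-1.10, SE 0.09, adjusted p = 8.69e-07 by edgeR). Genes of 1 cluster and 1 parental class thus included Ndn, the least certain call, which rose, and Peg12, which fell. They were set side by side after their values were seen. Mkrn3 (-0.07, SE 0.14) and Snhg14 (-0.05, SE 0.13), of the same cluster and class, did not pass.

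Impact, a paternally expressed inhibitor of the amino acid sensor kinase Gcn2, had the tightest replicates of the members that rose. It had 127, 136, 136 and 133 CPM in the controls, against 203, 187, 207 and 192 CPM in the KO-labelled group, with no overlap (0.57, SE 0.08, adjusted p = 9.08e-05 by edgeR). Inpp5f, an inositol phosphatase gene of which a shorter transcript is imprinted in brain, fell. Its levels were 33.3, 34.5, 31.5 and 45.6 CPM in the controls, against 23.8, 22.3, 22.0 and 24.4 CPM in the KO-labelled group (-0.64, SE 0.12, adjusted p = 0.00104 by edgeR). The groups did not overlap, and a gene total does not separate the imprinted transcript from the others.

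**Figure D2:**
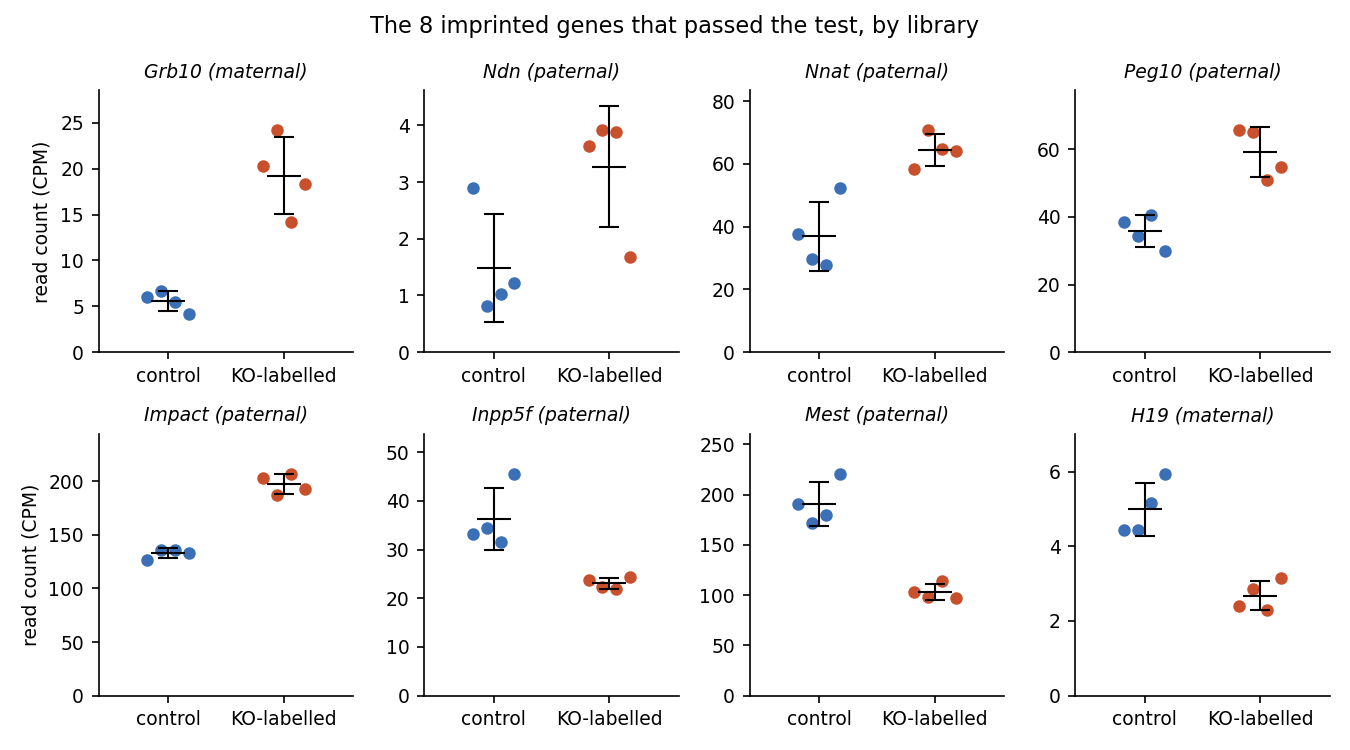
Read count in CPM (y axis, from 0) of the 8 imprinted genes that passed the test, with a point per library, control and KO-labelled, and bars at the mean ± SD (n = 4). The groups are separate in each panel but that of Ndn, where control 1 at 2.90 CPM lies above KO-labelled library 4 at 1.67 CPM.

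Several paternally expressed members sit inside an intron of another gene, and their levels were compared with those of the host. Nnat, a membrane proteolipid gene of the developing brain inside Blcap, rose. It had 37.7, 29.7, 27.8 and 52.2 CPM in the controls, against 58.5, 70.7, 64.7 and 64.1 CPM in the KO-labelled group (0.81, SE 0.16, adjusted p = 0.0018 by edgeR). The groups did not overlap, with control 4 nearest to the KO-labelled libraries. Blcap rose as well (0.53, SE 0.12, adjusted p = 0.00317 by edgeR), and the ratio of Nnat to Blcap overlapped between the groups. Nnat, Blcap, H13, Mcts2 and Gnas lie on chromosome 2, as does Trp53bp1. Of the 1148 genes tested on that chromosome 29.3% were called, beside 30.0% of all genes. This share covers the whole chromosome and cannot show changes limited to a part near Trp53bp1, which were not tested.

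Nap1l5, a nucleosome assembly protein gene inside Herc3, had 157, 150.5, 158 and 160.0 CPM in controls against 174, 149, 203 and 158 CPM, and did not pass (0.13, SE 0.10, adjusted p = 0.355 by edgeR). Its host, a ubiquitin ligase gene, fell (Herc3, -0.53, SE 0.11, adjusted p = 0.00243 by edgeR). The log2 ratio of Nap1l5 to Herc3 therefore moved from 2.57 ± 0.09 to 3.22 ± 0.34, without overlap. Zrsr1, a splicing factor gene inside Commd1, had 26.3 to 30.8 CPM in the controls, against 27.4 to 32.8 CPM in the KO-labelled group. Neither Zrsr1 (0.13, SE 0.10) nor Commd1 (-0.35, SE 0.16) passed, and their log2 ratio was 1.69 ± 0.19 in the controls, against 2.15 ± 0.12 in the KO-labelled group, without overlap. Mcts2, a translation factor gene inside H13, had 38.6 to 50.1 CPM in controls against 30.3 to 42.6 CPM (-0.24, SE 0.12, adjusted p = 0.144 by edgeR). H13, an intramembrane protease gene whose long form is maternally expressed in brain, had 23.1 to 30.01 CPM in controls against 26.7 to 32.3 CPM (0.15, SE 0.11), and the ratio of both overlapped.

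**Figure D3:**
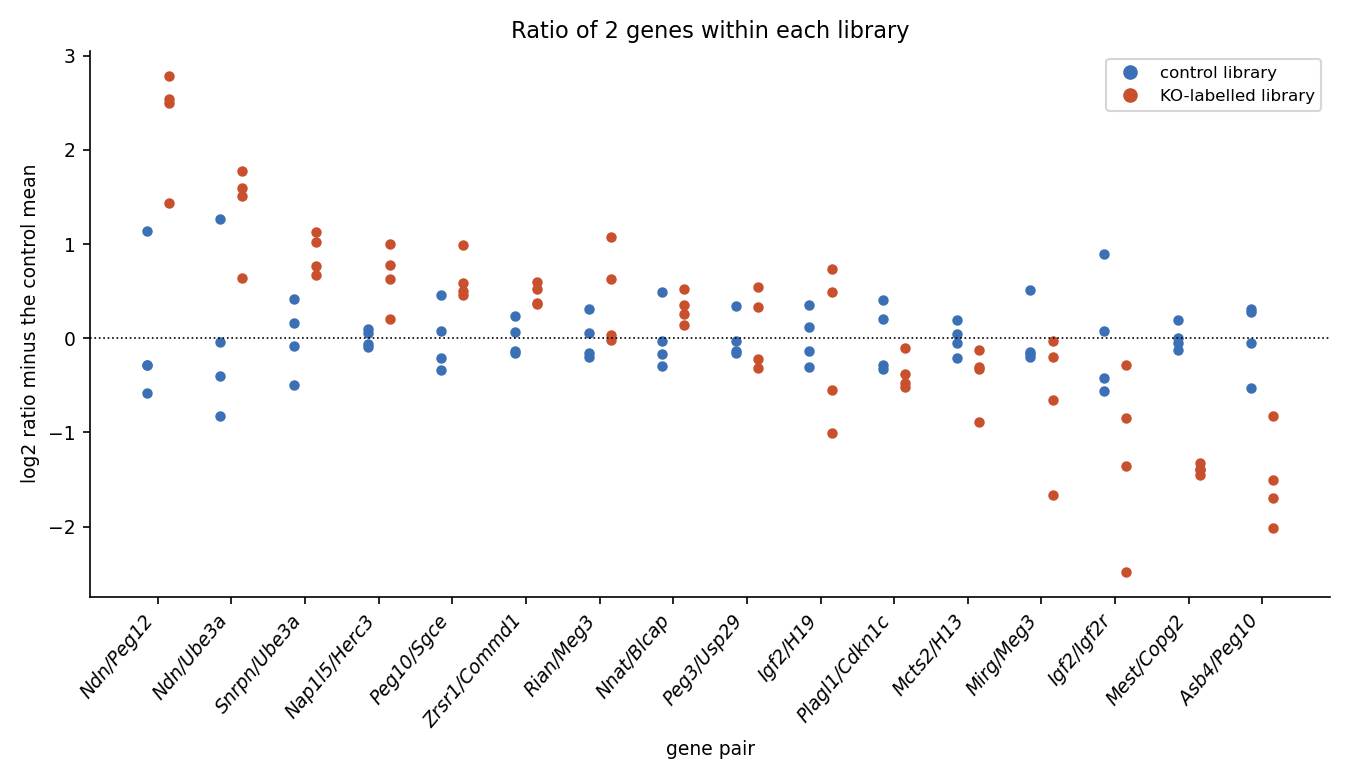
Log2 ratio of 2 genes in each library minus the control mean of that ratio (y axis). Shown are 14 of 21 pairs listed at the start, those with both genes tested. A further 2 pairs (Ndn/Peg12, Mest/Copg2) were chosen after the values were seen. Of the 14 pairs 5 do not overlap between the groups: Snrpn/Ube3a, Nap1l5/Herc3, Peg10/Sgce, Zrsr1/Commd1 and Asb4/Peg10. No such share was taken over other gene pairs, and of single genes tested 29.9% did not overlap.

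Peg3 and Usp29 start next to each other in opposite directions on chromosome 7. Peg3, a zinc finger protein of growth and maternal behaviour, had 168, 187, 211 and 311 CPM in the controls, against 235, 244, 194 and 226 CPM in the KO-labelled group. Control 4 was the highest of the 8 libraries, and the other 3 controls lay at or below 211 CPM (0.04, SE 0.16, 95% interval -0.30 to 0.37). Usp29, named as a ubiquitin protease, had 28 to 63 counts in a control and 38 to 50 in a KO-labelled library (-0.08, SE 0.30). The ratio of Peg3 to Usp29 overlapped, with log2 means of 6.41 ± 0.23 and 6.49 ± 0.42.

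Plagl1, a zinc finger transcription factor that acts on other imprinted genes, had 5.74 to 7.79 CPM in the controls, against 5.89 to 7.11 CPM in the KO-labelled group (0.04, SE 0.15, adjusted p = 0.876 by edgeR). Cdkn1c, a maternally expressed inhibitor of cyclin-dependent kinases and a known target of Plagl1, did not pass either (0.42, SE 0.19, adjusted p = 0.103 by edgeR). Gnas, which makes the alpha subunit of the stimulatory G protein and other products of mixed parental origin, had 49.3, 41.7, 40.8 and 35.6 CPM in controls against 41.5, 52.1, 50.9 and 39.4 CPM (0.13, SE 0.12, adjusted p = 0.459 by edgeR). Its products were not counted apart. Phlda2, which limits placental growth, had 0 to 1 counts in a control and 0 to 3 in a KO-labelled library, and Slc38a4, an amino acid transporter gene, had 2 to 8 and 0 to 3 counts; neither was tested.

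Beyond the 33, a list of 56 further genes reported as imprinted in some mouse tissue had 52 rows, of which 37 were tested. Of these 7 rose and 6 fell, a share of 35.1% beside 30.0% of all genes tested, with a median log2 fold change of -0.10. Peg12, Copg2 and Herc3 were described above. Htr2a, a serotonin receptor gene, fell from 5.46 ± 2.19 to 1.56 ± 0.323 CPM (-1.84, SE 0.32), with control 4 at 2.19 CPM and the other controls at 6.18 CPM or above. Rasgrf1, an activator of Ras proteins, rose from 1.17 ± 0.303 to 3.22 ± 0.901 CPM (1.44, SE 0.28). Pon2, a lactonase gene of the Peg10 cluster, rose from 46.7 ± 1.54 to 61.9 ± 3.42 CPM (0.41, SE 0.09).

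Genes that set, copy or protect DNA methylation and imprints were called about as often as genes at large. Of 31 tested 11 fell and none rose (35.5% called, median log2 fold change -0.11), beside 30.0% of all genes called and 13.9% lower. Voom called 2 higher, as did the fit without KO-labelled library 3, and 7 were lower without KO-labelled library 4 and 5 with no filter on low counts. Uhrf1, which brings Dnmt1 to newly copied DNA, fell from 29.6 ± 3.58 to 12.5 ± 2.22 CPM (-1.26, SE 0.14, adjusted p = 1.22e-05 by edgeR). Dnmt1 itself, the maintenance methyltransferase, had 27.7, 26.3, 28.5 and 30.1 CPM in the controls, against 14.3, 16.3, 11.9 and 14.4 CPM in the KO-labelled group (-0.99, SE 0.11). Hells, a chromatin remodeller needed for DNA methylation, fell from 189.6 ± 31.2 to 86.1 ± 10.2 CPM (-1.14, SE 0.12). Dnmt3a, a methyltransferase that sets new marks, had 37.7 ± 3.29 and 37.8 ± 5.42 CPM (0.00, SE 0.12).

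Trim28, the corepressor that Zfp57 recruits to imprinted control regions, fell from 92.5 ± 5.80 to 67.6 ± 4.25 CPM (-0.45, SE 0.09). Zfp57, named after its values were seen, fell from 12.1 ± 2.17 to 8.94 ± 0.577 CPM (-0.44, SE 0.14, adjusted p = 0.0294 by edgeR), with control 4 at 9.16 CPM inside the KO-labelled range. Atrx, a chromatin remodeller on the X chromosome, fell (-0.53, SE 0.11), and group and sex coincide. Eed, a Polycomb subunit, fell by 0.36 on the log2 scale (SE 0.09).

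**Figure D4:**
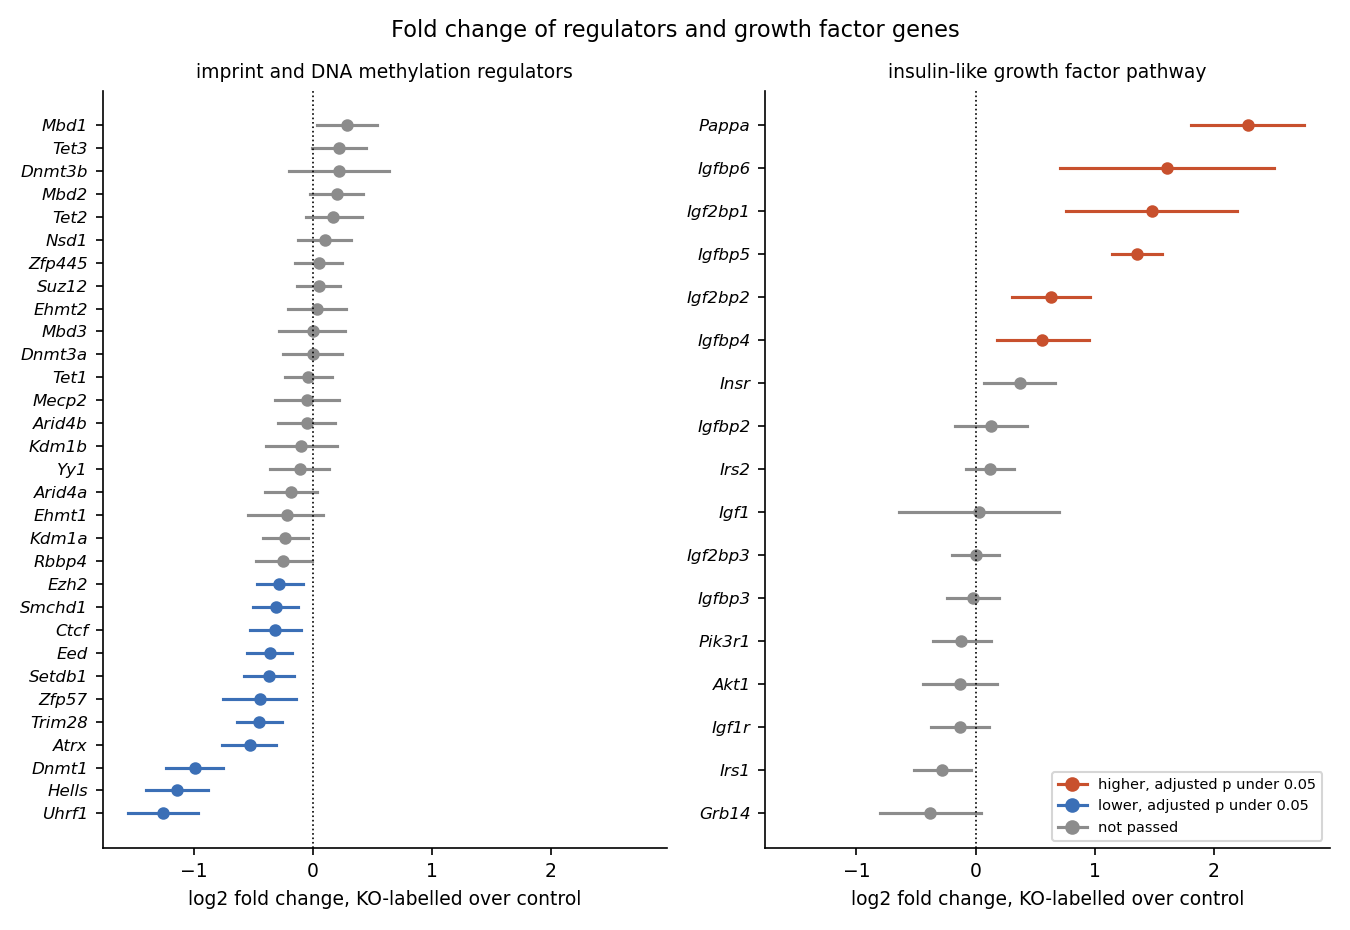
Log2 fold change of the KO-labelled over the control libraries (x axis) with its 95% interval for 31 regulators of imprints and DNA methylation (left) and 17 genes of the insulin-like growth factor pathway (right). Among the regulators 11 fell, led by Uhrf1 at -1.26, and in the growth factor pathway 6 rose, led by Pappa at 2.29.

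Markers of dividing cells and of astrocytes differed between the groups beside these genes. All 8 cycling cell markers tested fell and summed to 5158 to 6239 CPM in the controls, against 2749 to 3509.9 CPM in the KO-labelled group. Among them Mki67, which encodes Ki-67, was at 2875 ± 317 CPM in the controls and fell to 1429 ± 179.9 CPM. Of 7 astrocyte markers 6 rose, summing to 142 to 196 CPM in the controls, against 640.1 to 702 CPM in the KO-labelled group. Neuron markers moved both ways, with 2 of 11 higher and 3 lower, and their sums overlapped (409.6 to 535 CPM and 375 to 456 CPM). Progenitor markers were abundant in every library, led by Fabp7 at 7576 ± 1012 and 7778 ± 1266 CPM, and 5 of 10 rose and 3 fell. Microglial markers summed to at most 5.09 CPM in any library, erythroid markers to at most 2.28 CPM with Hba-a1 and Hba-a2 at 0 counts throughout, and choroid plexus markers to at most 14.5 CPM with Ttr at 0 counts throughout. Cartilage markers had 1 of 4 lower. The part of the makeup of the cells in the values of the imprinted genes and their regulators was not tested.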

How the data were processed

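RNA-seq libraries of sorted neural progenitors (4 labelled 53BP1KO, 4 labelled control) came from a stranded kit for total RNA, per the labels' protocols. The authors deposited whole-number counts of reads per gene symbol. Per the submitters' processing notes, CASAVA and HTSeq 0.6.1p1 were used, and mm9 and NCBIM37 were the builds; neither aligner nor strand setting is given in the sources used here. Overlapping, antisense and intron-nested genes may share or lose reads. No row without a gene name was present.

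After filterByExpr and TMM scaling, 15021 genes entered the quasi-likelihood test of edgeR 4.0.16 (R 4.3.3), called at 0.05 after Benjamini-Hochberg adjustment. CPM use TMM-scaled totals. Standard errors were derived from the fold change and the F statistic. Pair ratios are log2 of counts plus 0.5, have no test and are not per gene length. A chi-square over genes with at least 10 counts gave 4.45 per degree of freedom for controls 2 and 3 and 13.8 to 36.2 for the other pairs within a group. Controls 2 and 3 were thus closer to each other than any other pair, but differed by more than sampling noise, and all libraries were kept. Alternatives were DESeq2 1.42.0, voom of limma 3.58.1, RLE and upper-quartile scaling, other filters, robust dispersion, a replicate block and each library left out. Chromosomes came from RefSeq by symbol. Named are all members, the 6 smallest adjusted p per further list, pair partners and abundant markers. Dnmt3a, Igf2bp3, Igfbp2, Igfbp3, Zfp57, Snurf and the blood and choroid plexus genes at 0 were named outside that rule, after their values were seen. So were Mkrn3, Snhg14, Twist1, Myod1, Myog, Acta1 and Actc1. The members and lists were chosen with earlier results of these data known.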

Additional observations from a re-analysis of the deposited data

Results flagged for a closer look

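In 2 of 50 sets of 4 libraries checked (25 imprinted genes in each group), 1 library stood far from the other 3 of its group; chance flags about 1 in 20. Rian was at 5.15 CPM in control 2, and the other controls were between 3.28 and 3.45 CPM. Ndn was at 1.67 CPM in KO-labelled library 4, where the other KO-labelled libraries were between 3.63 and 3.91 CPM, and without that library its log2 fold change still passed the test.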

How the results depend on the processing

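Grb10, Nnat, Peg10, Impact, Mest, H19 and Inpp5f were called in the same direction under every alternative run. Ndn was lost with upper-quartile scaling (1.06, adjusted p = 0.0518) and in 6 of the 8 fits without 1 library (adjusted p up to 0.121), and its log2 fold change was 0.87 to 1.66 over all 8. Limma voom called 13 imprinted genes, the same 8 with Meg3, Rian, Mirg, Ube3a and Igf2, so that 8 members and 5 maternally expressed ones were lower; it called 40.6% of all genes. Without a filter 2 maternally expressed genes were higher, the added one Igf2r (0.31, adjusted p = 0.0284), with a median over all genes of -0.13 (DESeq2 -0.01, RLE scaling -0.01, upper-quartile -0.04, without 1 library -0.02 to -0.01); the cause was not tested. The paternally expressed median was 0.03 with upper-quartile scaling, 0.11 with no filter, 0.11 with voom and -0.02 to 0.13 without 1 library. The sign turned for Peg3 (0.00 upper-quartile, -0.07 to 0.24 without 1 library), Plagl1 (0.00 upper-quartile, -0.04 voom, -0.03 to 0.13), Sgce (-0.05 voom, -0.04 to 0.16) and Usp29 (-0.27 to 0.19), none of which passed. Of the regulators 2 were higher with voom (0 to 2 without 1 library) and 5 lower with no filter (7 to 12). Of the growth factor genes 1 was lower with DESeq2, 1 with upper-quartile scaling, 2 with voom and 0 to 1 without 1 library.

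Replicate numbers did not clearly pair the samples: deviations of same-numbered libraries correlated at 0.25, 0.28, -0.16 and 0.01 for numbers 1 to 4. The KO-labelled library that correlated best was the same-numbered one for controls 1 and 2, and another one for controls 3 and 4. A fit with the replicate block called 8 imprinted genes, the same 8, and 27.8% of all genes. Alternatives for the list counts and the pair ratios were chosen after the data were seen. With 3 counts worth 0.126 to 0.261 CPM, the counts of Dlk1, Rtl1, Magel2, Slc38a4 and Phlda2 fell below the filter, and none of the 5 was called in the fit with no filter. Values of Igf2, Mirg, Asb4 and Snrpn rest on few reads.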
